A study of Sus scrofa with 8 samples.

Results

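The circadian clock genes examined here are 10 genes listed by symbol in the hepatic expression table, namely the activators ARNTL, CLOCK and NPAS2, the repressors PER1, PER2, PER3, CRY1 and CRY2, and the output factors DBP and TEF. Each symbol matched 1 row, so all 10 were found among the 18103 rows, and all 10 were among the 13175 genes tested. They were chosen by name as core clock and output factors, which bear on the time of sampling. Hepatic RNA came from male Large White x Landrace pigs and was sequenced after poly-A selection in 8 pools of 2 pigs each. The 4 pools of the initial state came from animals aged 4 months before the steatotic diet, and the other 4 from the same animals at 6 months of age, after 2 months on that diet. The steatotic diet was rich in cholesterol, sodium cholate, fructose and saturated fat, and low in methionine and choline. Both groups were fasted overnight and sampled under propofol anaesthesia, the initial livers by laparotomy biopsy and the final ones at euthanasia. The hour of the day at sampling is not given in the sources used here. Diet, age, the way of sampling and any difference in hour thus cannot be told apart in this comparison.

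The mammalian clock is a feedback loop of transcription. ARNTL (also called BMAL1) pairs with CLOCK or its paralogue NPAS2 and activates genes that carry E-box elements, among them the PER and CRY genes, whose proteins return to the nucleus and inhibit the activators. A further loop of nuclear receptors, with REV-ERB proteins (NR1D1, NR1D2) as repressors and RORA as an activator, sets the transcription of ARNTL, NPAS2 and other genes. DBP, TEF and HLF are PAR bZIP factors that carry the rhythm to D-box elements of target genes, where NFIL3 acts against them. In liver this system times bile acid, lipid, glucose and xenobiotic metabolism, and in most tissues DBP and PER transcripts peak at a different hour from ARNTL. PER1 and PER2 are also acutely induced by glucocorticoids and by signals that induce immediate early genes, and hepatic clock phase follows the time of feeding.

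Expression is given as FPKM, fragments scaled by transcript length and by the mapped total of the library, so that levels of different genes can be set side by side. The step between low FPKM values placed the depth of the libraries between an estimated 19000000 and 21000000 fragments, with the shallowest at 90.8% of the deepest. Hepatocyte markers were abundant in every library, with ALB (albumin) between 33168 and 71003 FPKM. The highest ALB value was in pool 4 of the initial state, against 41268 to 45743 FPKM in the other initial pools. By markers of other tissues, pool 1 of the initial state stood apart. Its summed level of the 8 skeletal muscle markers found was 2810 FPKM, against 0.82 to 21.0 in the other initial pools and 0.1 to 0.35 in steatosis, and that of 7 stomach mucosa markers was 1530 FPKM, against 5.52 to 28.6 and 5.73 to 6.28. The median log2 fold change over all tested genes was 0.25, so each change below stands against this general shift. When each library was divided by the median of its ratios to the average library (median ratio scaling), this median became -0.01. It also moved the share of higher genes among those passing an adjusted p of 0.05 from 92.1% to 54.1%.

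With limma on log2(FPKM + 0.1) and Benjamini-Hochberg adjustment over all tested genes, 4 of the 10 clock genes were higher in steatosis at an adjusted p under 0.05 and none was lower. These 4 were DBP, PER3, CRY2 and TEF. Over all tested genes 26.7% were higher and 2.28% lower by the same rule, and the count of 4 of 10 is read against these shares and not as a result about the clock genes. At an unadjusted p under 0.05 limma counted 5 clock genes higher, NPAS2 being the fifth, and 0 lower. The share of all tested genes at that threshold was not computed, so this count is not read as a result about the clock genes. Under the limits of the study, a log2 fold change beyond 1 with an adjusted p under 0.01, only DBP among the 10 was differentially expressed, against 6.01% of all tested genes higher and 0.334% lower. No overlap between the groups was seen for 4 clock genes, NPAS2, PER3, CRY2 and DBP, all higher in steatosis, where 29.6% of all tested genes had no overlap in this direction and 2.53% in the other. The median log2 fold change was 0.43 for the 10 clock genes and 0.25 for all tested genes. With median ratio scaling 3 clock genes (DBP, PER3 and CRY2) were higher and 1 (ARNTL) was lower, against 11.6% and 9.85% of all genes tested in that fit. In bulk liver, fewer cells of a type and less RNA per cell cannot be told apart, and this holds for every value below.

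**Figure D1:**
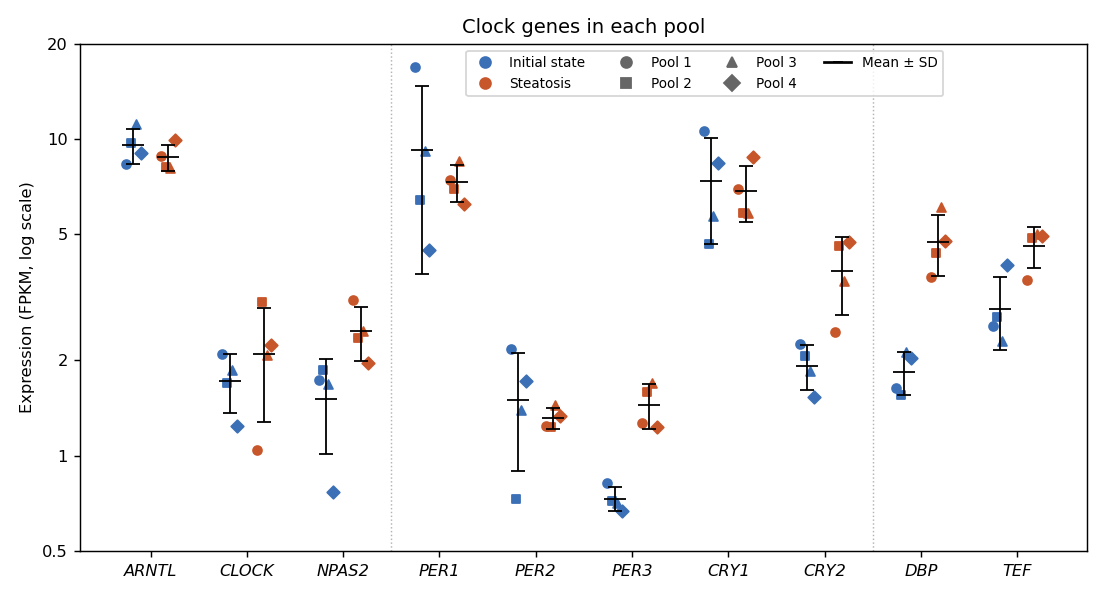
Expression of the 10 clock genes in each pool, in FPKM on a log axis, with blue points for the initial state, orange points for steatosis, a marker shape for each pool number, and black bars for the mean ± SD of 4 pools. DBP went from a range of 1.55 to 2.13 to a range of 3.68 to 6.11 with no overlap, whereas PER1 in the initial state spreads from 4.46 to 16.94 around the narrower range of steatosis.

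DBP, the D-box binding factor that drives rhythmic hepatic genes, had the largest change among the 10. This gene (ID 100524747) lies on chromosome 6 of Sscrofa11.1 from 53986955 to 53993044. It measured 1.64, 1.55, 2.13 and 2.03 FPKM in pools 1 to 4 of the initial state and 3.68, 4.36, 6.11 and 4.77 FPKM in steatosis. Every steatosis pool was above every initial pool, and pool 3 was the highest of both groups. The mean rose 2.57-fold, from 1.84 ± 0.285 to 4.73 ± 1.02 FPKM (SD, n = 4 pools), with a log2 fold change of 1.31 (SE 0.18, 95% interval 0.91 to 1.7, adjusted p = 0.00074 from limma). The adjusted p stayed between 0.000603 and 0.00587 in all 19 alternatives. With median ratio scaling the log2 fold change was 1.04. Between pools of the same number the difference on the log2 scale was 1.12, 1.43, 1.48 and 1.19.

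TEF, a second PAR bZIP factor that binds the same D-box elements, rose on the deposited FPKM, but this call depended on the libraries and the scaling. The gene (ID 110260633, chromosome 5, 7119354 to 7135171) measured 2.57, 2.75, 2.31 and 4 FPKM in the initial state and then 3.59, 4.89, 5.02 and 4.95 FPKM in steatosis. The groups overlapped, because pool 4 of the initial state was above pool 1 of steatosis, and the other 3 steatosis pools lay close together. The mean was 2.91 ± 0.75 FPKM in the initial state and 4.61 ± 0.684 in steatosis (SD, n = 4), and the log2 fold change was 0.67 with an SE of 0.18 (adjusted p = 0.0243, limma). The adjusted p was 0.216 with median ratio scaling and 0.167 with upper quartile scaling. It lay between 0.0511 and 0.0687 when pool 1 or 3 of the initial state, or pool 2, 3 or 4 of steatosis, was left out.

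PER3, the PER family member held to be least needed for rhythm itself, had the lowest level of the 10 genes in the initial state. This gene (ID 100627898, chromosome 6, 68487634 to 68548718) measured 0.82, 0.72, 0.71 and 0.67 FPKM in the initial state and then 1.27, 1.59, 1.7 and 1.23 FPKM in steatosis. The initial pools were almost alike and all lay below the lowest steatosis pool. The mean rose 1.98-fold, from 0.73 ± 0.0638 to 1.45 ± 0.233 FPKM (SD, n = 4), with a log2 fold change of 0.89 (SE 0.16, 95% interval 0.52 to 1.25, adjusted p = 0.00362 from limma). Its adjusted p was under 0.05 in all 19 alternatives, at 0.0188 with median ratio scaling, where the log2 fold change was 0.64. The lowest value of PER3 corresponds to about 110 fragments, by the estimated depth and the length of 7775 bases.

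CRY2 encodes a cryptochrome, a repressor that blocks ARNTL and CLOCK directly. The gene (ID 100517750, chromosome 2, 16587101 to 16620380) measured 2.26, 2.06, 1.85 and 1.53 FPKM in the initial state and then 2.46, 4.6, 3.57 and 4.74 FPKM in steatosis. The groups did not overlap, although pool 1 of steatosis exceeded pool 1 of the initial state by only 0.12 on the log2 scale, against 1.12, 0.91 and 1.57 for pools 2, 3 and 4. The mean rose 2-fold, from 1.93 ± 0.312 to 3.84 ± 1.06 FPKM (SD, n = 4), and the log2 fold change was 0.93 with an SE of 0.22 (adjusted p = 0.011, limma). Without pool 1 of steatosis it was 1.12 with an adjusted p of 0.00338, inside the limits of the study. With median ratio scaling the adjusted p was 0.0421, and with that scaling and blocking by pool number it was 0.0682.

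The other 3 repressors did not pass the test, and their small differences depended on single pools, among them pool 1 of the initial state for all 3. PER1, the light- and glucocorticoid-inducible PER gene (ID 100620648, chromosome 12, 53361863 to 53376723), measured 16.94, 6.41, 9.15 and 4.46 FPKM in the initial state and then 7.44, 6.97, 8.56 and 6.25 FPKM in steatosis. The steatosis pools lay inside the range of the initial pools, whose coefficient of variation was 59.3%, against 13.3% in steatosis and medians of 17.7% and 11.3% over all tested genes. The log2 fold change was -0.17 (95% interval -0.92 to 0.58, adjusted p = 0.73 from limma), 0.18 without pool 1 of the initial state and -0.45 without its pool 4.

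PER2, the PER gene whose loss shortens or abolishes rhythm in mice (ID 100154609, chromosome 15, 137793419 to 137837854), measured 2.17, 0.73, 1.39 and 1.72 FPKM in the initial pools. In steatosis it measured 1.24, 1.23, 1.45 and 1.33 FPKM. Its highest and its lowest value were thus both in the initial state, in pools 1 and 2, and its coefficient of variation was 40.3% there and 7.78% in steatosis. The log2 fold change was -0.09 (95% interval -0.71 to 0.52, adjusted p = 0.821) and turned to 0.11 without pool 1 of the initial state and to -0.38 without its pool 2.

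CRY1, the cryptochrome that also restrains gluconeogenic signalling in liver (ID 100520380, chromosome 5, 13275265 to 13429566), measured 10.65, 4.68, 5.73 and 8.44 FPKM in the initial state and then 6.98, 5.84, 5.84 and 8.76 FPKM in steatosis. Pools 1 and 4 were the higher ones in both groups, and the groups overlapped widely. The log2 fold change was -0.05 (95% interval -0.6 to 0.5, adjusted p = 0.889 from limma), with -0.24 without pool 2 of the initial state and 0.15 without its pool 1. The intervals of these 3 repressors reach at least 0.5 on the log2 scale on both sides, so a change of that size in either direction is not excluded.

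ARNTL, the partner required by both CLOCK and NPAS2, was the most abundant clock gene in both groups and one of the steadiest. This gene (ID 100037286, chromosome 2, 45895637 to 46025174) measured 8.33, 9.73, 11.19 and 9.04 FPKM in the initial state and then 8.82, 8.19, 8.14 and 9.94 FPKM in steatosis. The groups overlapped, with means of 9.57 ± 1.22 and 8.77 ± 0.838 FPKM (SD, n = 4) and a log2 fold change of -0.12 (SE 0.12, 95% interval -0.39 to 0.15, adjusted p = 0.469 from limma). Relative to the median of all tested genes this was -0.37. With median ratio scaling the log2 fold change was -0.39 and passed the test (adjusted p = 0.0322), as it did with upper quartile scaling (-0.35, adjusted p = 0.0414).

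NPAS2, the paralogue that can stand in for CLOCK (ID 100521893, chromosome 3, 53298805 to 53490375), measured 1.73, 1.87, 1.68 and 0.77 FPKM in the initial state and then 3.1, 2.35, 2.47 and 1.96 FPKM in steatosis. All steatosis pools were above all initial pools, and pool 4 was the lowest of both groups. The mean was 1.51 ± 0.501 and 2.47 ± 0.473 FPKM (SD, n = 4), with a log2 difference of 0.72 (SE 0.26, 95% interval 0.13 to 1.31) that missed the threshold in limma (adjusted p = 0.0643). With pools blocked by their number the same fold change had an adjusted p of 0.0257, and with median ratio scaling and no block it was 0.47 with an adjusted p of 0.176. Without pool 4 of the initial state it was 0.45 (adjusted p = 0.0683).

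CLOCK itself (ID 100628097, chromosome 8, 54793323 to 54910192) measured 2.1, 1.7, 1.87 and 1.24 FPKM in the initial state and then 1.04, 3.05, 2.08 and 2.24 FPKM in steatosis. Pool 1 of steatosis held the lowest value of CLOCK among the 8 libraries and the highest of NPAS2. The log2 fold change of CLOCK was 0.2 (95% interval -0.45 to 0.86, adjusted p = 0.63 from limma), 0.49 without pool 1 of steatosis (adjusted p = 0.132) and -0.06 with median ratio scaling.

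When mean FPKM was compared gene by gene with a two-sided exact permutation test, the p was 0.0286, the smallest that 4 pools against 4 allow, for NPAS2, PER3, CRY2 and DBP. It was 0.0571 for TEF and between 0.314 and 0.8 for the other 5 genes. For NPAS2, PER3, CRY2 and DBP the permutation p of 0.0286 follows from the lack of overlap already given. Over all tested genes 29.6% had no overlap with steatosis higher. From it also follows that the steatosis pool was above the initial pool of the same number in 4 of 4 pairs for these genes. TEF, whose groups overlapped, was also higher in 4 of 4 pairs, and the share of all tested genes with this was not computed.

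**Figure D2:**
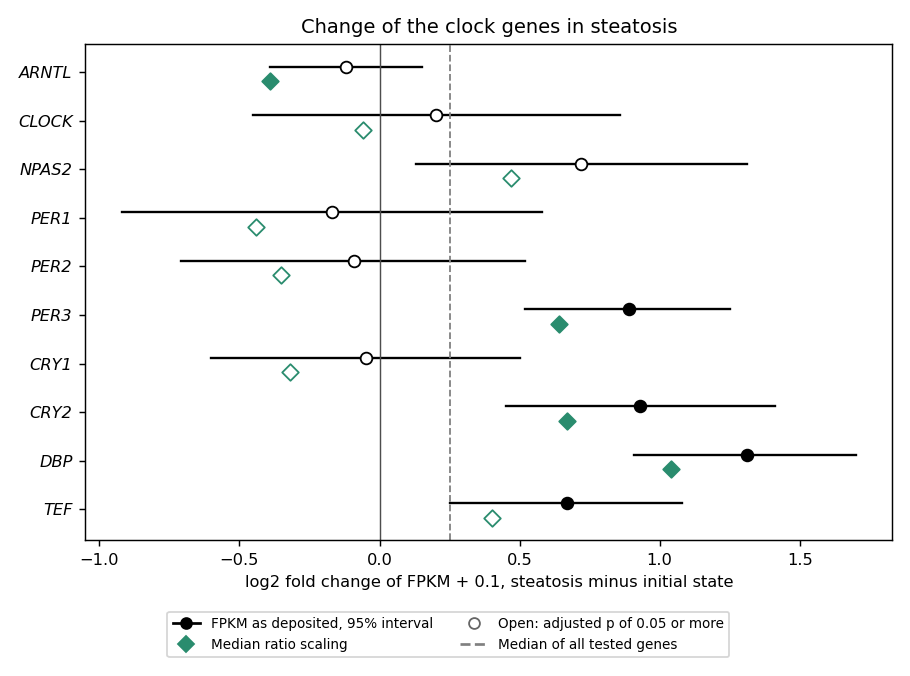
Log2 fold change of each clock gene (steatosis minus initial state) on the horizontal axis, with black circles and 95% intervals for FPKM as deposited and green diamonds for median ratio scaling. Filled symbols passed an adjusted p of 0.05, and the dashed line at 0.25 is the median of all tested genes. DBP, PER3 and CRY2 are filled under both scalings, TEF only as deposited and ARNTL only after scaling.

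The order of the levels changed little at the top. In the initial state ARNTL, PER1 and CRY1 led with means of 9.57, 9.24 and 7.38 FPKM, and the ranges of neighbours in this group overlapped. A gap separated CRY1, whose lowest pool was 4.68 FPKM, from TEF, whose highest was 4 FPKM, and another separated TEF (lowest 2.31) from CRY2 (highest 2.26). CRY2, DBP, CLOCK, NPAS2, PER2 and PER3 followed with means from 1.93 down to 0.73 FPKM, each overlapping the next. In steatosis the same 3 genes led with means of 8.77, 7.3 and 6.86 FPKM, and DBP (4.73), TEF (4.61) and CRY2 (3.84) came next. NPAS2 (2.47), CLOCK (2.1), PER3 (1.45) and PER2 (1.31) had the lowest means, and the ranges of all neighbours overlapped in this group. DBP thus moved from rank 6 to rank 4, above TEF, with ranges of 3.68 to 6.11 and 3.59 to 5.02 FPKM.

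Ratios between 2 clock genes of the same library do not depend on how libraries are scaled to each other. These ratios were chosen after the values were seen and carry no test. The ratio of DBP to ARNTL was 0.197, 0.159, 0.19 and 0.225 in the initial pools and 0.417, 0.532, 0.751 and 0.48 in steatosis. Its mean was 0.193 ± 0.0268 and 0.545 ± 0.145 (SD, n = 4), with no overlap. The ratio of PER3 to ARNTL did not overlap either, with means of 0.0775 ± 0.0148 and 0.168 ± 0.0404. Within the PER family, PER3 relative to PER1 was at 0.0484 to 0.15 in the initial pools and at 0.171 to 0.228 in steatosis. PER3 relative to PER2 overlapped, at 0.378 to 0.986 in the initial pools and 0.925 to 1.29 in steatosis. The ratios of NPAS2 to ARNTL and of TEF to ARNTL overlapped as well. CRY2 relative to CRY1 averaged 0.289 ± 0.118 and 0.573 ± 0.18 and was higher in steatosis in each numbered pool, but the groups overlapped. PER1 relative to ARNTL showed no such separation, with 0.493 to 2.03 in the initial pools and 0.629 to 1.05 in steatosis. The ratio of NPAS2 to CLOCK was 2.98 in pool 1 of steatosis and between 0.621 and 1.19 in the other 7 libraries.

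**Figure D3:**
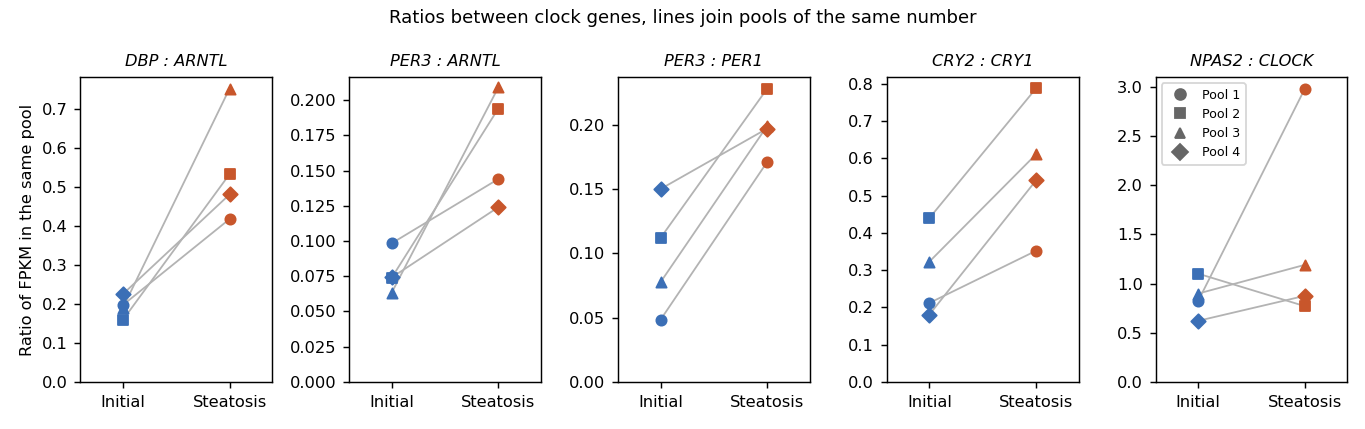
Ratios of FPKM between 2 clock genes in the same pool, on a linear axis from 0, for the initial state (blue) and steatosis (orange), with lines joining pools of the same number. The ratios of DBP to ARNTL, PER3 to ARNTL and PER3 to PER1 do not overlap between groups, and the ratio of NPAS2 to CLOCK reaches 2.98 in a single pool.

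Of 11 other transcription factors listed for the clock loops, 9 passed the filter on low values, and RORB and ARNTL2 did not, with means of at most 0.045 FPKM. Only BHLHE41 (DEC2, an E-box repressor) among the 9 passed as higher at an adjusted p of 0.05, against 26.7% of all tested genes, and none was lower, also at an unadjusted p under 0.05. It rose from 0.52 ± 0.0963 to 1.18 ± 0.094 FPKM (SD, n = 4) with no overlap, a log2 fold change of 1.05 with an SE of 0.18 (adjusted p = 0.00228, limma, under 0.05 in all 19 alternatives). Its paralogue BHLHE40 (DEC1) had 33.39 FPKM in pool 1 of the initial state and 10.03 to 13.57 FPKM in the other 7 libraries. The log2 fold change of BHLHE40 was -0.32 (adjusted p = 0.462) and 0.05 without that pool. The median log2 fold change of the 9 genes was 0.08, below the 0.25 of all tested genes.

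The REV-ERB receptors and RORA did not pass the test on the deposited FPKM. NR1D1 (REV-ERB alpha) measured 1.18, 3.61, 1.79 and 0.59 FPKM in the initial state and then 1.33, 3.6, 5.92 and 1.97 FPKM in steatosis, a log2 fold change of 0.85 with an SE of 0.55 (adjusted p = 0.262, limma). Pools 2 and 3 were the highest of each group. Blocked by pool number, its SE was 0.31 and its adjusted p 0.0785. NR1D2 (REV-ERB beta) had a log2 fold change of 0.52 (95% interval -0.23 to 1.26) and was also highest in pool 3 of steatosis, at 7.52 FPKM. RORA averaged 5.22 and 3.95 FPKM (log2 fold change -0.38, adjusted p = 0.121), and passed as lower with median ratio scaling (-0.65, adjusted p = 0.036) but not with the block added (adjusted p = 0.0694). Without pool 1 of the initial state the log2 fold change of RORA was -0.25, and -0.14 without pool 1 of both groups. HLF, the third PAR bZIP factor, averaged 6.7 and 7.11 FPKM, with a log2 fold change of 0.08 (95% interval -0.3 to 0.47) that turned to -0.18 with median ratio scaling. NFIL3, which competes with the PAR bZIP factors, was at 71.55 FPKM in pool 1 of the initial state and at 17.17 to 29.39 FPKM in the other 7 libraries. CIART, a repressor of the ARNTL and CLOCK pair, had a log2 fold change of 0.05 (95% interval -0.84 to 0.95), and also -0.18 with that scaling.

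**Figure D4:**
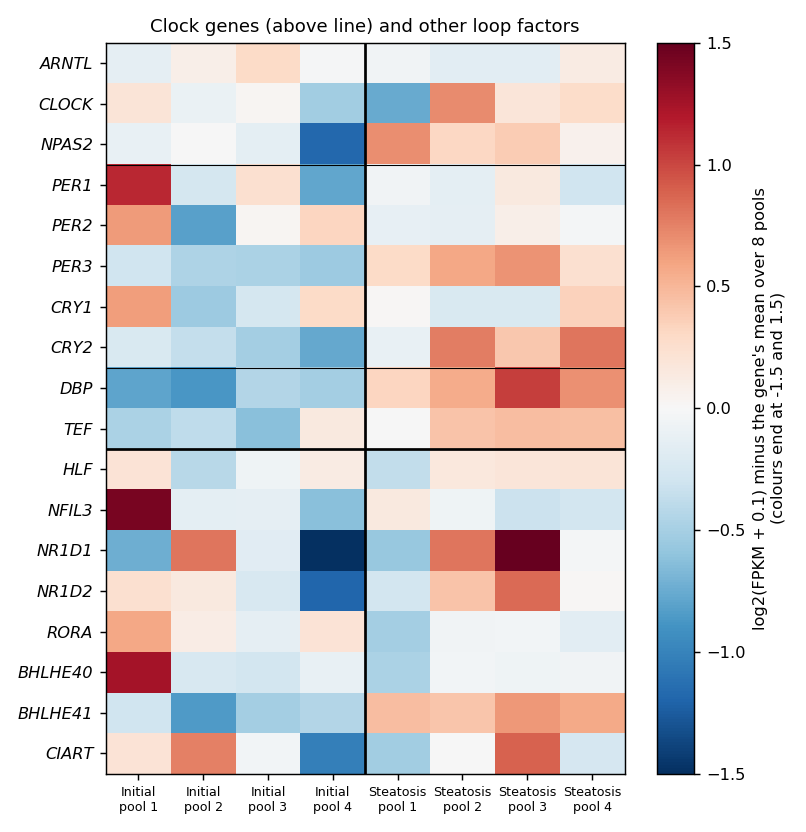
Deviation of log2(FPKM + 0.1) from the mean of each gene over 8 pools, for the 10 clock genes above the thick horizontal line and 8 further loop factors under it, with pools in columns. DBP, PER3 and BHLHE41 are below their mean in all 4 initial pools and above it in all 4 steatosis pools, and PER1, NFIL3 and BHLHE40 are highest in pool 1 of the initial state.

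Among the enzymes and ubiquitin ligases that modify clock proteins, 12 were listed and 10 tested. Casein kinase CSNK1D, which phosphorylates PER proteins, averaged 14.9 FPKM in the initial state and 19.6 in steatosis (log2 fold change 0.4, adjusted p = 0.0155 from limma). The F-box protein FBXW11 had a log2 fold change of 0.47 (adjusted p = 0.0303). These were the 2 of 10 genes that passed as higher, against 26.7% of all tested genes, and none was lower, also at an unadjusted p under 0.05. Both lost the call with median ratio scaling (adjusted p = 0.267 and 0.208), and of 19 alternatives CSNK1D passed in 14 and FBXW11 in 12. BTRC, the paralogue of FBXW11 that marks PER proteins for degradation, did not pass (log2 fold change 0.33, adjusted p = 0.106). The median of the list was 0.15.

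Of 14 genes listed as rhythmic outputs of the hepatic clock, 13 were tested, 2 were higher and 2 lower at an adjusted p of 0.05, against 26.7% of all tested genes higher and 2.28% lower. Their median log2 fold change was -0.01. WEE1, a mitotic kinase with E-box elements in its promoter, measured 0.93, 0.82, 0.93 and 0.95 FPKM in the initial state and then 1.83, 1.85, 1.96 and 2.11 FPKM in steatosis. The groups did not overlap and each pool lay near its group mean, and the log2 fold change was 1.02 with an SE of 0.13 (adjusted p = 0.000644, limma). POR, the electron donor of hepatic cytochrome P450 enzymes, rose from 40.4 to 63.9 FPKM (log2 fold change 0.67, adjusted p = 0.00169). KLF10, a zinc finger factor under clock and glucose control, fell from 11.7 to 5.71 FPKM (log2 fold change -1.03, adjusted p = 0.00908), and GYS2, hepatic glycogen synthase, from 172 to 99.2 FPKM (-0.75, adjusted p = 0.0354). GYS2 is named as the other lower gene of this list, after its values were seen, and its adjusted p was under 0.05 in 11 of 19 alternatives, at 0.0717 without pool 1 of the initial state and 0.0899 without pool 1 of steatosis.

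Most of the listed genes that respond to glucocorticoids or to acute stimuli had their highest initial value in pool 1. All 5 repressors had their highest initial value in that pool, as did 7 of 10 glucocorticoid-responsive genes and 12 of 13 immediate early genes. So did 7 of 11 other loop factors, 6 of 13 rhythmic outputs and 4 of 10 clock protein modifiers. The 7 loop factors include RORB, below the filter on low values, which was tied at 0.02 FPKM with pool 4. Pool 4 of the initial state held the lowest initial value of 8 of the glucocorticoid-responsive genes, of 11 of the immediate early genes and of PER1, PER3 and CRY2. It also held that of 9 of 10 clock protein modifiers, 5 of 11 other loop factors (with ARNTL2, at 0 FPKM) and 5 of 13 rhythmic outputs. Its median ratio to the average library was the lowest of the initial pools, 0.807 against 0.907 to 0.991. The share of all tested genes highest or lowest in each pool was not computed. These counts are thus not read as a trait of any list. The summed level of the immediate early genes was 838, 251, 208 and 117 FPKM in the initial state and then 357, 181, 290 and 160 FPKM in steatosis. That of the glucocorticoid-responsive genes was 3690, 2000, 2470 and 1270 FPKM in the initial state and then 973, 1250, 1210 and 987 FPKM in steatosis. Most of this second sum was PCK1, at 999.93 to 2455.16 FPKM in the initial pools and 653.58 to 948.46 FPKM in steatosis. Gene by gene, the log2 fold changes of the glucocorticoid-responsive list ran from -1.22 to 0.31, with a median of -0.54. In the latter list PCK1 (gluconeogenic PEPCK) passed as lower, from 1700 to 794 FPKM (log2 fold change -1.03, adjusted p = 0.0131 from limma), which makes 1 of 10 where 2.28% of all tested genes were lower. TAT (-1.22, adjusted p = 0.0562) and ERRFI1 (-0.68, adjusted p = 0.0675), which encode an amino acid catabolic enzyme and an inhibitor of EGF receptor signalling, missed the threshold on the deposited FPKM without a block. Both passed as lower when blocked by pool number (adjusted p = 0.0263 and 0.00318), where 2.6% of all genes were lower. Both also did so with median ratio scaling (adjusted p = 0.0305 and 0.0217), where 9.85% of all genes were lower. Each of the 2 genes passed in only 5 of 19 alternatives. Without pool 1 of the initial state their adjusted p was 0.0952 and 0.13. Of the 5 temperature-responsive genes tested none passed, at log2 fold changes from 0.01 to 0.34, with the lowest adjusted p for HSPH1 (0.188), HSPA8 (0.297) and DNAJB1 (0.377), and none had an unadjusted p under 0.05. Without pool 1 of the initial state the log2 fold changes of HSPH1, HSPA8 and DNAJB1 went from 0.34, 0.31 and 0.23 to 0.18, 0.06 and 0.02. The part of muscle and stomach RNA or of these responses in the clock gene values was not tested. Without pool 1 of the initial state the log2 fold changes of DBP, PER3 and CRY2 were 1.26, 0.94 and 1.01, with adjusted p of 0.00193, 0.00528 and 0.013.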

How the data were processed

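The authors aligned filtered reads to Sus scrofa 11.1 (HISAT2 2.0.4), built transcripts by StringTie, merged those newly found and coding with the known ones, and quantified genes by Bowtie2 2.2.5 and RSEM 1.2.12. FPKM values were deposited by the authors with no stated scaling between libraries. Their own comparisons of single pools (fold changes and FDR) were not used, apart from transcript lengths.

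Genes that reached 0.3 FPKM in 4 or more of the 8 libraries entered limma 3.58.1 (R 4.3.3, trended variance prior). The model held group alone on log2(FPKM + 0.1), and p-values were adjusted after Benjamini-Hochberg. A fold change on this scale understates the change of low genes. Single genes were also compared by an exact permutation test. Tables used Python 3.11.15, pandas 2.3.3 and scipy 1.17.1. The fit was tested on simulated data. A replicate is a pool of 2 pigs, so p-values measure the spread between pools. Depth was estimated from the step between FPKM values under 0.6 in genes of 800 to 1200 bases, with 100 bases taken off their length, and fragments behind a value follow from it.

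Both groups are the same animals, and deviations from the group means correlated at 0.16, 0.35, 0.32 and 0.25 between pools of the same number, all over 0.1. The labels do not state that pools of the same number hold the same pigs, and pools of different numbers were not correlated. Pairing by number is thus not established. The main model ignores it, and the block, which takes the numbers to pair the pools, is an alternative. Other alternatives were 3 scalings, no filter and a stricter one, pseudocounts of 1 and 0.01, no trend, each pool left out, pool 1 of both groups left out, and limma's treat test. Coordinates come from RefSeq, assembly Sscrofa11.1, by gene ID (all 10 matched). No sequence was used.

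The 10 genes and all lists were chosen with earlier results of these data known. Named are the 10 genes, 8 loop factors and at most 3 genes of each further list, those with the smallest adjusted p, plus GYS2. Lists cover loop factors, modifiers, hepatic outputs, glucocorticoid, temperature and immediate early genes, and markers of hepatocytes, skeletal muscle, stomach mucosa, macrophages and adipose tissue. A row that shares the symbol TF but is described as another gene was left out. A tested loop factor counted in its list is not reported here.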

Additional observations from a re-analysis of the deposited data

Results flagged for a closer look

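Of 66 groups of 4 pools (33 named genes in both groups), 7 held a pool whose gap to the nearest other pool exceeded Dixon's 95% limit. Chance alone flags about 1 in 20 groups. In pool 1 of steatosis TEF was at 3.59 FPKM, against 4.89 to 5.02 in the other 3 pools. HLF was at 5.27 FPKM in the same pool, against 7.61 to 7.81, and BHLHE40 at 10.03 FPKM, against 13.38 to 13.57. In pool 1 of the initial state NFIL3 was at 71.55 FPKM, against 17.17 to 24.15 in the other 3 pools. BHLHE40 was at 33.39 FPKM in that pool, against 11.54 to 12.98, and FOSB at 15.7 FPKM, against 0.23 to 1.29. WEE1 was at 0.82 FPKM in pool 2 of the initial state, against 0.93 to 0.95, a small difference in a narrow group.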

How the results depend on the processing

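DBP and PER3 kept their direction and an adjusted p under 0.05 in all 19 alternatives, and CRY2 in 18 (0.0682 in the other). TEF kept its call in 11. A replicate block for pool number (pools of the same number taken as paired) brought NPAS2 past the threshold (log2 fold change 0.72, adjusted p 0.0257). It changed no other call among the 10. The count of 4 higher genes was 2 with median ratio scaling and the block together (added after seeing the data), where 11.5% of all tested genes were higher. It was 3 to 4 without single pools, where 17.0% to 26.0% of all tested genes were higher. The count of 0 lower genes became 1 (ARNTL) with upper quartile scaling, with median ratio scaling, and with this scaling and the block. In these settings, in the same order, 7.79%, 9.85% and 8.37% of all tested genes were lower. The count of 1 gene past the limits of the study was 2 without pool 1 of both groups, where 596 of 12808 tested genes passed them as higher. It was 1 to 2 without single pools, where 573 to 788 of all tested genes did so. Under limma's treat test it was 0 (0 at its unadjusted p under 0.05). CLOCK turned to -0.02 with upper quartile scaling and to -0.06 with median ratio scaling, with and without the block. Without pool 1 of the initial state PER1, PER2 and CRY1 turned to 0.18, 0.11 and 0.15, and without pool 1 of both groups to 0.17, 0.13 and 0.13. CRY1 was also 0.04 without pool 4 of the initial state, and 0.02 without pool 2 or pool 3 of steatosis. Over single pools left out, PER1 reached -0.45, PER2 -0.38 and CRY1 -0.24 at the other end. The cause of these turns was not tested, and none of the 4 genes passed the test in any alternative. Depth limits the lowest values, which correspond to about 60 fragments for NPAS2 and DBP.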

Other observations

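Among 13 immediate early genes, EGR2 and EGR3 were the only ones to pass the test, both higher in steatosis, which is 2 of 13 where 26.7% of all tested genes were higher. EGR2, a zinc finger factor also used by macrophages, was 1.76 higher on the log2 scale (SE 0.27), at 0.69 and 2.5 FPKM (adjusted p = 0.00136, limma), and EGR3 was 1.52 higher, at 0.152 and 0.58 FPKM (adjusted p = 0.00815). EGR3 met the filter through its steatosis pools, at 0.42 to 0.72 FPKM, against 0.05 to 0.31 FPKM in the initial pools. It was still tested in only 17 of the 19 alternatives. FOSB had a log2 fold change of -1.72 (adjusted p = 0.232). Beside these, 6 of 9 macrophage markers passed as higher, against the same 26.7%, with a summed level of 868 to 1110 FPKM in the initial pools and 1260 to 1470 FPKM in steatosis. TREM2, counted among them, met the filter through steatosis alone, with at most 0.29 FPKM in the initial pools and 4.01 to 6.54 FPKM in steatosis. The summed level of 5 adipose markers was 85.1 FPKM in pool 1 of the initial state, 16.5 to 17.5 in the other initial pools and 54.1 to 63.9 in steatosis. Most of the sum in steatosis was FABP4, at 41.86 to 53.59 FPKM. Of the 5 markers, 3 were tested and 1, FABP4, passed as higher. The other 2 tested, CIDEC and PLIN1, had log2 fold changes of -0.33 and -0.42. In steatosis ADIPOQ was at most 0.04 FPKM and LEP at 0, so the sum does not show a rise of adipose markers as a set. Only 1 skeletal muscle marker, ACTA1, passed the filter on low values, and it was lower. It met the filter through the initial pools alone, at 0.49 to 1439 FPKM, against at most 0.04 FPKM in steatosis. Only 1 stomach marker passed the filter, and it did not pass the test. Hepatocyte markers had a median log2 fold change of -0.06, with 1 of 8 higher. The part of other cell types in the clock gene values was not tested.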
